A study of Rattus norvegicus with 8 samples.

Results

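Aminoacyl-tRNA synthetases are the enzymes that load each amino acid onto its transfer RNA. Their transcripts were followed in the liver of 21-day-old rats whose mothers were fed standard food or a diet deficient in methyl donors. The members were the 36 genes of a fixed list, taken where the array's gene name was the same as the listed name, and 32 of the 36 had a probe. Of these, 30 were tested, among 14873 genes in all, because their signal stood well above background in 4 or more samples. The 30 were 19 enzymes of the cytosol and 11 enzymes that work in mitochondria, whose gene names end in 2. Gars, Cars2, Hars2 and Iars2 had no probe under that name. Lars2 and Mars2 had probes too dim for that filter.

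The animals were Wistar rats in 2 groups of 4. Control pups came from dams on standard food, and deficient pups from dams whose food lacked vitamin B12 and folates, vitamins needed to pass methyl groups on to homocysteine. The dams ate these diets before and during pregnancy and until weaning, so that the pups met the diet before birth and while suckling. Whole liver RNA was labelled with Cy3 or Cy5 and hybridised on 4 Agilent 2-colour arrays, each with 1 control and 1 deficient sample. On arrays 1 and 3 Cy3 marked the deficient sample, and on arrays 2 and 4 Cy5 did. The control group held 1 male and the deficient group 2. The sources do not say which pups shared a dam, so a p-value here covers only the spread among these 8 animals.

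Each synthetase joins its amino acid to the matching transfer RNA at the cost of ATP, and ribosomes can only read a codon whose transfer RNA has been loaded. Class I and class II synthetases have unrelated catalytic folds. Mitochondria translate their own few messages with a separate set of synthetases, nuclear in origin and imported, although lysyl-tRNA synthetase (Kars) and glycyl-tRNA synthetase (Gars) serve both compartments from 1 gene. In animal cells 8 of the cytosolic enzymes sit in a multisynthetase complex held by scaffold proteins. When an amino acid runs short, uncharged transfer RNA activates the kinase GCN2 (Eif2ak4), which phosphorylates the initiation factor eIF2 and so favours translation of the transcription factor ATF4. ATF4 is known to bind C/EBP-ATF response elements (CARE) and to activate many genes of the cytosolic synthetases, together with genes of amino acid synthesis and uptake.

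The stretches with the CARE letters TGATGNAA, read on both strands, are shown because the 4 synthetases that fell in deficient livers all had them in the promoter. Promoter windows of 300 bases, 250 before to 50 after the transcription start, were taken from RefSeq on the GRCr8 build. They were found for 17 of the 19 tested cytosolic genes and for all 13 mitochondrial genes with a probe. Each line gives the strand of the gene 5′ to 3′, with the 8 matching letters in capitals. TTGCATCA is the reverse complement of TGATGCAA.
Aars, chr19:55908481-55908508, plus strand: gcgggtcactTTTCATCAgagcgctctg
Yars, chr5:146820191-146820212, plus strand: cgagctcagcTGATGCAAcctg
Nars, chr18:60275779-60275806, minus strand: ctaggtgatcTGATGCAAcgcttcagtc
Tars, chr2:62114812-62114839, minus strand: tggcgtcccgTTGCATCAgctggttagc
Mars, chr7:65023753-65023780, minus strand: cccgttccggTTGCATCAgcgtgggctc
Cars, chr1:208225335-208225362, minus strand: ggcgccgcggTTGCATCAgattctggaa
Iars, chr17:15193659-15193686, minus strand: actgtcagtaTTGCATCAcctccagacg
In Iars, Mars, Nars and Tars the match began before the start, at -24, -17, -14 and -27. In Aars, Cars and Yars the match shown began at bases 10, 18 and 39 of the transcript.

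The question of the diet comparison was whether transcripts of the charging enzymes differ between livers of deficient and control pups. Of the 19 cytosolic synthetases, 4 fell in deficient livers and 0 rose, while 0 of the 11 mitochondrial ones were called in either direction (limma, adjusted p under 0.05 over all genes tested). The 4 were alanyl- (Aars), tyrosyl- (Yars), threonyl- (Tars) and asparaginyl-tRNA synthetase (Nars). Of all genes tested, 6.6% were called lower, 4.57% higher and 11.2% in either direction. At an unadjusted p under 0.05, 9 cytosolic synthetases were lower and 1 was higher, against 14.8% and 12.8% of all genes. Of the mitochondrial ones 1 was lower and 1 higher at that threshold.

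**Figure D1:**
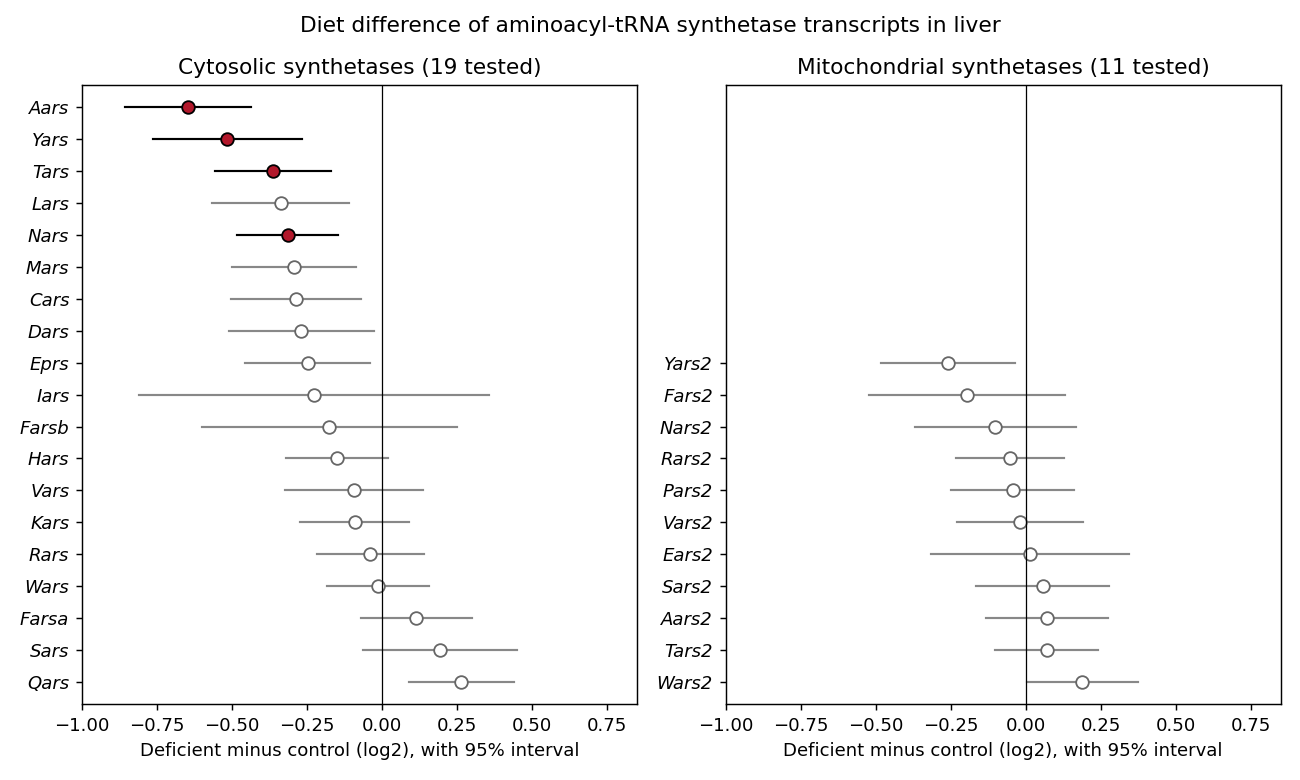
Each point is the fitted difference of 1 synthetase transcript, deficient minus control on the log2 scale, and each line its 95% interval from limma. Filled points are the 4 genes called at an adjusted p under 0.05. Of the 19 cytosolic genes 16 lie left of 0, with a median of -0.23, and of the 11 mitochondrial genes 6, with a median of -0.02.

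Aars had the smallest adjusted p of the family. Its enzyme is of class II and is known for editing, the removal of serine or glycine loaded by mistake. Normalized log2 intensities were 13.42, 13.04, 13.20 and 13.18 in control replicates 1 to 4 and 12.36, 12.51, 12.72 and 12.66 in deficient replicates 1 to 4. Every deficient animal lay below every control animal. The difference was -0.65 ± 0.09 (SE, n = 4 per group, 95% interval -0.86 to -0.44, limma adjusted p = 0.00519), a 1.57-fold lower intensity in deficient livers. The ratios within arrays 1 to 4 were -0.71, -0.84, -0.38 and -0.66. The probe lies on chr19:40974359-40974418 of the rn4 build, plus strand, per the file headers, and its place within the exons was not assigned here. Aars was called in all 27 alternatives of processing and sample choice, with differences from -0.73 to -0.55.

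Yars, a class I enzyme that charges tyrosine, had control log2 intensities of 9.55, 9.78, 9.50 and 9.59. In deficient replicates 1 to 4 they were 8.71, 9.07, 9.11 and 9.47. The groups did not overlap, although deficient replicate 4 came close to the lowest control. The difference was -0.52 ± 0.11 (SE, n = 4 per group, limma adjusted p = 0.0213), and it was lower on all 4 arrays. Its probe lies on chr5:148378176-148378235 of rn4, plus strand.

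Tars charges threonine and edits serine that it loads by mistake. Its log2 intensities were 13.77, 13.38, 13.57 and 13.54 in controls and 13.31, 13.26, 13.14 and 13.09 in deficient animals. The groups did not overlap. The difference was -0.36 ± 0.09 (SE, n = 4 per group, limma adjusted p = 0.0316). It was -0.63 on array 1 and between -0.29 and -0.26 on arrays 2 to 4. The other probe of Tars gave -0.34 ± 0.09 (SE, limma adjusted p = 0.0433 in a fit of all probes). The probes lie next to each other, on chr2:60765945-60766004 and chr2:60766282-60766341 of rn4, minus strand.

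Nars charges asparagine, the amino acid made by Asns. Its log2 intensities were 8.92, 8.80, 8.54 and 8.76 in controls and 8.44, 8.61, 8.41 and 8.30 in deficient animals. Here the groups overlapped, since deficient replicate 2 lay above control replicate 3. The difference was -0.32 ± 0.07 (SE, n = 4 per group, limma adjusted p = 0.031). The other Nars probe had a like difference, -0.34 ± 0.10 (SE), but missed the threshold (limma adjusted p = 0.0616 in the fit of all probes).

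Aars was called in all 12 fits that left out 1 animal or 1 array, Yars in 6, Tars in 3 and Nars in 3. Over all 27 alternatives Yars was called in 16, Tars in 11 and Nars in 10. Without deficient replicate 3 the differences were -0.64 for Aars, -0.49 for Yars, -0.33 for Tars and -0.33 for Nars, and Aars alone was called (limma adjusted p = 0.0124, 0.0541, 0.0774 and 0.0533). Deficient replicate 3 and its array stood apart in skeletal muscle markers: the median ratio of 10 such genes was 2.40 on array 1 and between -0.03 and 0.22 on the other arrays. Aars was likewise the only synthetase called without array 1, without array 3, without control replicate 1 and without control replicate 3. Without control replicate 2 Aars and Tars were called, and without control replicate 4 or array 2 Aars and Yars. Without deficient replicate 4 the synthetases called lower were Aars, Yars and Mars. Without array 4 they were Aars, Yars, Nars, Dars and Lars, and without deficient replicate 2 these 5 and Tars, and in both of these fits Qars was called higher (limma adjusted p = 0.0482 and 0.0269).

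**Figure D2:**
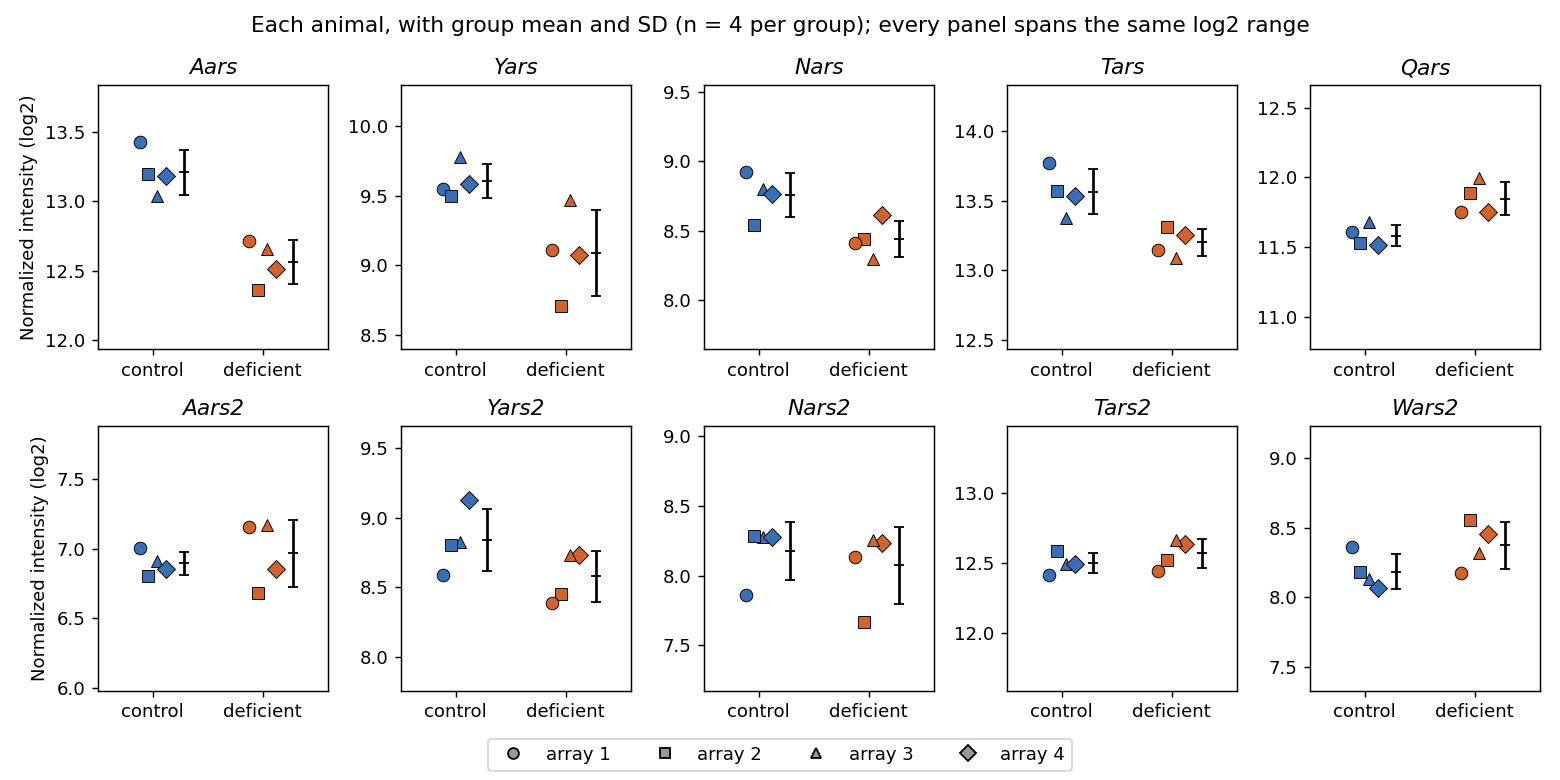
Each symbol is 1 animal, with normalized log2 intensity on the y axis, the symbol's shape giving its array and the bar the group mean with SD (n = 4 per group). In Aars, Yars and Tars all 4 deficient animals lie below all 4 controls, in Qars all lie above, and in Nars and the 5 mitochondrial genes the groups overlap.

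Qars, the glutaminyl-tRNA synthetase, went the other way, and is singled out here after its values were seen. Control replicates 1 to 4 had log2 intensities of 11.61, 11.68, 11.53 and 11.51, and deficient replicates 11.89, 11.75, 11.75 and 12.00. Every deficient animal lay above every control, as in 5.51% of all genes tested. The difference of 0.26 ± 0.08 (SE, n = 4 per group) did not pass the threshold (limma adjusted p = 0.0605), and it was positive on all 4 arrays, from 0.14 to 0.36. It passed without deficient replicate 2, without array 4 and with samples weighted by their quality. The file headers place its only probe on chr16_random:1255481-1255540 of rn4, plus strand. The promoter window of Qars lies on chr8 of GRCr8, and this mismatch of chromosomes was not resolved here.

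The other cytosolic synthetases were not called. Leucyl- (Lars), methionyl- (Mars), cysteinyl- (Cars), aspartyl- (Dars) and glutamyl-prolyl-tRNA synthetase (Eprs) had differences of -0.34, -0.29, -0.29, -0.27 and -0.25, with SE from 0.09 to 0.11 (n = 4 per group). Each of these 5 was below 0 on all 4 arrays, and their limma adjusted p-values ran from 0.0657 to 0.14. Mars loads methionine, the amino acid that the vitamins missing from the diet help to remake from homocysteine, and its log2 intensities were 11.64, 11.67, 11.47 and 11.45 in controls and 11.22, 11.28, 11.07 and 11.49 in deficient animals. Deficient replicate 4 lay above 2 of the controls and the other 3 below all of them.

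Histidyl- (Hars), valyl- (Vars), lysyl- (Kars), arginyl- (Rars) and tryptophanyl-tRNA synthetase (Wars) had differences between -0.15 and -0.01. Seryl-tRNA synthetase (Sars) was at 0.19 ± 0.11 (SE). The subunits of phenylalanyl-tRNA synthetase differed in sign, with the alpha subunit Farsa at 0.11 ± 0.08 and the beta subunit Farsb at -0.18 ± 0.19 (SE). The isoleucyl enzyme (Iars) had the widest error of the family, at -0.23 ± 0.26 (SE), with control intensities from 9.62 to 10.80 and deficient intensities from 9.22 to 10.81. For Kars and Wars a dimmer probe gave 0.08 and -0.18 in the fit of all probes, where the probe used gave -0.09 and -0.01.

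As a group the cytosolic synthetases lay below control. Their median difference was -0.23, where the median over all genes tested was 0.01. The medians on arrays 1 to 4 were -0.24, -0.26, -0.13 and -0.15. Of the 19, 16 had a difference below 0 (48.2% of all genes) and 11 were lower on all 4 arrays (13.8% of all genes). The groups did not overlap for 3 lower genes, Aars, Yars and Tars, against 5.96% of all genes. The cytosolic median lay between -0.28 and -0.11 under all 27 alternatives. It was smallest when samples were weighted, and -0.14 without array 2.

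None of the 8 members of the multisynthetase complex (Dars, Eprs, Iars, Kars, Lars, Mars, Qars and Rars) was called. Of all genes 11.2% were called, so that 0 of 8 is little different from that share. At an unadjusted p under 0.05 in limma 4 were lower and 1 was higher, against 14.8% and 12.8% of all genes. The median of the 8 was -0.24, with 7 of 8 below 0 (48.2% of all genes). The 11 cytosolic enzymes outside the complex held all 4 called genes and had a median of -0.18. By class, 1 of 9 class I and 3 of 9 class II cytosolic enzymes fell, with medians of -0.23 and -0.18, Eprs being counted in neither because it carries an enzyme of each. Of all genes 6.6% were called lower. Differences between these subgroups were not tested, and with so few genes the counts of called genes do not separate them.

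The mitochondrial synthetases had a median difference of -0.02, with 6 of 11 below 0. Their medians on arrays 1 to 4 were 0.03, -0.16, 0.08 and -0.10, so that the sign differed between arrays. The smallest p belonged to the tyrosyl enzyme Yars2, with control log2 intensities of 8.59, 8.83, 8.80 and 9.13 and deficient intensities of 8.46, 8.74, 8.39 and 8.74. Its difference was -0.26 ± 0.10 (SE, n = 4 per group, limma adjusted p = 0.127), below 0 on all 4 arrays with overlapping groups. Among the 11 tested, it was the only mitochondrial synthetase below 0 on all 4 arrays.

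The tryptophanyl enzyme Wars2 had intensities of 8.36, 8.13, 8.18 and 8.07 in controls and 8.55, 8.45, 8.17 and 8.31 in deficient animals, a difference of 0.19 ± 0.08 (SE, limma adjusted p = 0.172). Its groups overlapped, with control replicate 1 and deficient replicate 3 out of place, and its dimmer probe gave -0.03 in the fit of all probes. The phenylalanyl enzyme Fars2, which works alone where its cytosolic counterpart needs both subunits, had intensities of 7.87, 8.53, 8.46 and 8.72 in controls and 7.72, 8.43, 8.27 and 8.39 in deficient animals. Fars2 differed by -0.20 ± 0.14 (SE, limma adjusted p = 0.418), with 1 animal of each group well below the rest. The threonyl enzyme Tars2 had intensities of 12.41, 12.49, 12.59 and 12.50 in controls and 12.53, 12.64, 12.45 and 12.67 in deficient animals, a difference of 0.07 ± 0.08 (SE, limma adjusted p = 0.584). A dimmer Tars2 probe gave -0.12. The remaining 7 mitochondrial enzymes, Aars2, Ears2, Nars2, Pars2, Rars2, Sars2 and Vars2, had differences between -0.10 and 0.07. Their 95% intervals reached at most 0.37 below 0 (Nars2) and 0.35 above (Ears2).

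Some enzymes of the list were on the array under another name and were therefore not counted as members. A probe named RGD1311612, which RefSeq pairs with Cars2, had a difference of -0.39 ± 0.12 (SE, limma adjusted p = 0.0745). Its cytosolic counterpart Cars was at -0.29, and this pair was not among those compared below. A probe named Hars2l, paired with Hars2, was at -0.16 ± 0.08 (SE, limma adjusted p = 0.216). Probes described as glycyl-tRNA synthetase had differences of -0.13 and 0.06. None of these was called.

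Enzymes for the same amino acid were then compared within each animal, in 12 pairs of a cytosolic and a mitochondrial gene. The difference of the pair's diet differences was below 0, meaning lower for the cytosolic gene, in 8 of 12 pairs. It was below 0 on all 4 arrays in 4 pairs. Eprs stands in the pairs with Ears2 and Pars2, and Fars2 in those with Farsa and Farsb, so the pairs are not independent. No share over arbitrary pairs of genes was computed, so these counts have no background beside them. For alanine it was -0.72 ± 0.10 (SD over 4 arrays): Aars2 had log2 intensities of 7.002, 6.91, 6.80 and 6.86 in controls and 6.68, 6.85, 7.15 and 7.17 in deficient animals, overlapping where Aars did not. For threonine it was -0.43 ± 0.19, for tyrosine -0.26 ± 0.14 and for Eprs against the prolyl enzyme Pars2 -0.20 ± 0.23 (SD over 4 arrays).

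The alanine and threonine pairs reached p = 0.0286 in a two-sided exact permutation test over the animals, the smallest value that the 70 splits of 4 against 4 allow. After Benjamini-Hochberg adjustment over the 12 pairs the smallest exact permutation p was 0.171. With so few splits a small number of pairs cannot pass 0.05 after that adjustment, whatever their size, so the adjusted values say nothing about whether the pairs differ. The test does not use the pairing of animals on arrays. The ranges over arrays were widest for Farsa against Fars2, from -0.31 to 1.04 with a mean of 0.31, and for Nars against Nars2, from -0.79 to 0.52. A missed threshold does not show that the cytosolic and mitochondrial transcripts moved alike.

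**Figure D3:**
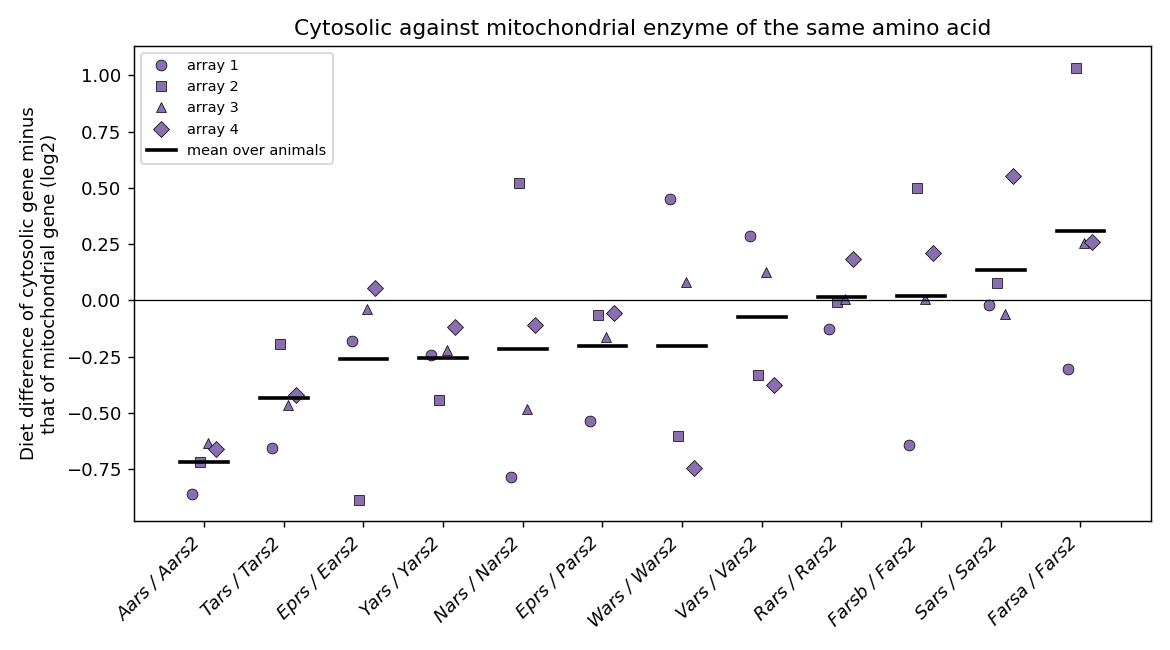
For each pair of genes for the same amino acid, symbols give the diet difference of the cytosolic gene minus that of the mitochondrial gene on each of 4 arrays (log2), and bars the mean. Only the Aars, Tars, Yars and Eprs/Pars2 pairs are below 0 on all 4 arrays, and the Aars pair lies between -0.86 and -0.63.

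The CARE letters were in 7 of 17 cytosolic promoter windows, 41.2%, and in 0 of 13 mitochondrial ones, while 3.98% of the 33469 RefSeq promoter windows of the same length had them. The 7 were those printed above. The RefSeq windows include genes that were not tested, and of the 8553 genes tested with a window 186 had the CARE letters. For comparison the motif of NRF-1, a factor known for mitochondrial genes, was searched on both strands. They were in 3 of 17 cytosolic windows (Farsb, Sars and Tars), in 2 of 13 mitochondrial windows (Pars2 and Wars2) and in 4.25% of all windows. The 2 motifs did not overlap in Tars. A match is only a match of letters, and no binding was measured.

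All 4 synthetases that fell were among the 7 with CARE letters. The 7 had differences between -0.65 and -0.23 and a median of -0.32, with medians of -0.52, -0.28, -0.29 and -0.25 on arrays 1 to 4. The 10 cytosolic genes without the letters had differences between -0.34 and 0.26, a median of -0.09 and 0 called genes. Their medians on arrays 1 to 4 were 0.04, -0.23, 0.07 and -0.08. Dars and Rars had no window in the table. Among the 8553 genes tested that had a promoter window, 14.5% of the 186 with the letters were called lower and 6.99% higher. The 186 include the 7 synthetases, and so the 4 that fell. Of the 8367 without the letters, 7.73% were called lower and 4.94% higher. The median differences of those groups were -0.03 and -0.01. These are descriptions, and no test was made between them.

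**Figure D4:**
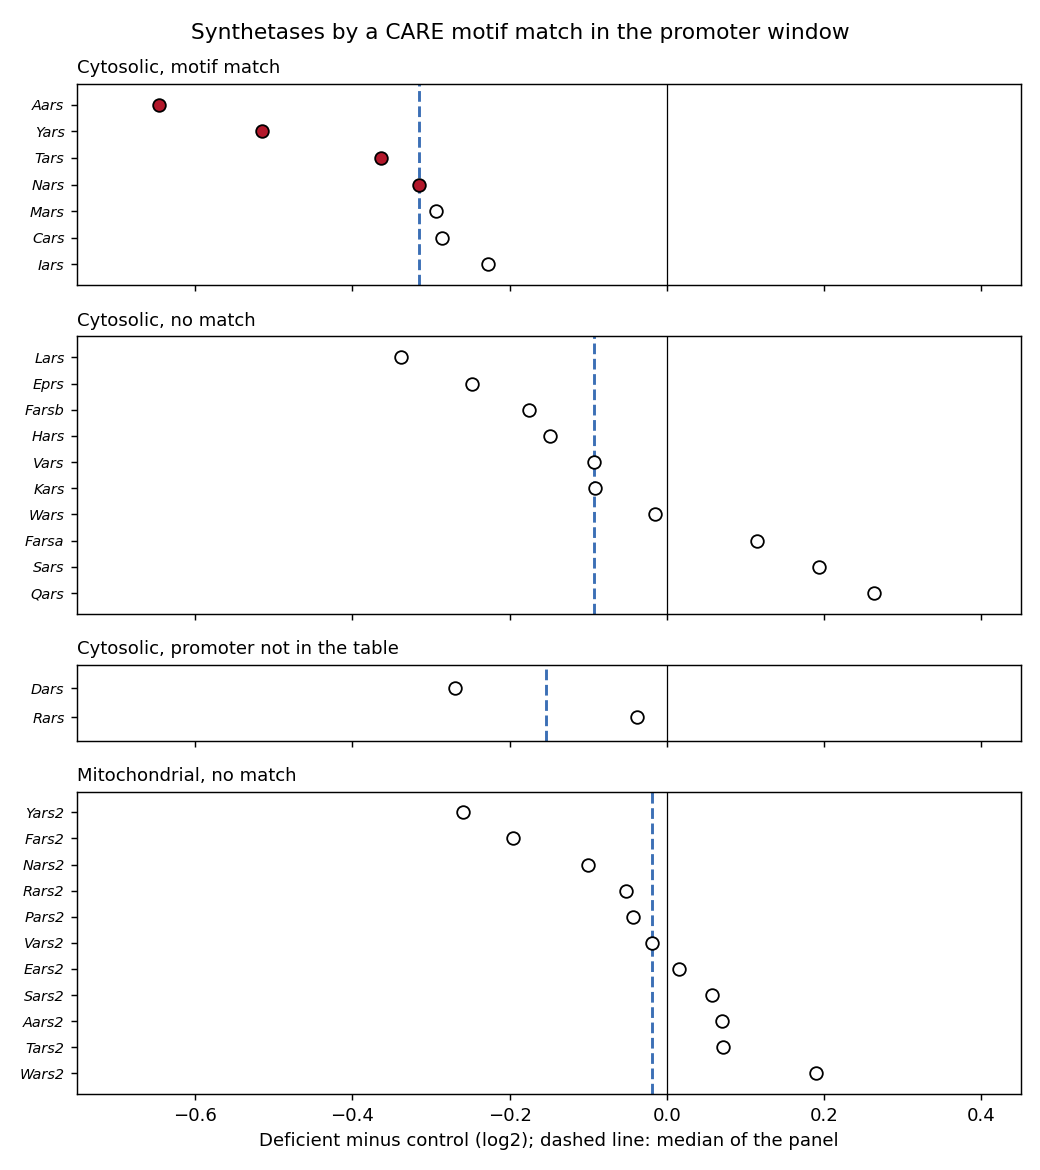
Each point is the fitted difference of 1 synthetase (deficient minus control, log2), sorted into panels by whether its promoter window holds the CARE letters. Filled points are called genes and dashed lines the panel medians. The 7 cytosolic genes with a match have a median of -0.32 and the 10 without one -0.09, and the mitochondrial genes, which have no match, -0.02.

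Other genes of the ATF4 pathway were called in both directions. Of 12 genes of the eIF2 kinases and the ATF4 axis, 3 rose and 0 fell, and of 19 genes of amino acid supply known as ATF4 targets, 2 rose and 2 fell (limma), where 4.57% of all genes were called higher and 6.6% lower. Atf4 itself was at 0.00 ± 0.09 and the kinase gene Eif2ak4 at -0.05 ± 0.12 (SE, n = 4 per group). ATF4 is controlled largely by translation, so its transcript level says little about its protein, which was not measured. Asns, which makes asparagine, was at 0.28 ± 0.16 (SE, limma adjusted p = 0.303).

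Trib3, a pseudokinase that ATF4 induces, rose by 2.26 ± 0.34 (SE, n = 4 per group, limma adjusted p = 0.00625). Its log2 intensities were 9.56, 8.79, 8.24 and 8.60 in controls and 12.12, 11.21, 9.65 and 11.26 in deficient animals. The groups did not overlap, but on array 1 the ratio was 0.09, where the other arrays gave 2.47 to 3.88. Fitted as within-array ratios with a dye term, Trib3 missed the threshold (limma adjusted p = 0.0531). The stress transcription factor Atf3 rose by 1.33 ± 0.17, the stress regulator Nupr1 by 0.90 ± 0.14 and Ddit3, which encodes the factor CHOP, by 0.88 ± 0.18 (SE, limma adjusted p = 0.00401, 0.00611 and 0.0184). Ddit3 was at -0.05 on array 1, its groups overlapped, and its call was lost with within-array ratios and kept in 8 of the 12 fits without 1 animal or array. Those without control replicate 2, control replicate 3, deficient replicate 4 or array 3 lost it. Without array 3 Nupr1, Pck2 and Shmt2 were not called either. Pck2, the mitochondrial phosphoenolpyruvate carboxykinase, rose by 0.98 ± 0.13 (SE, limma adjusted p = 0.00391). Psat1, of serine synthesis, fell by 1.16 ± 0.13 and Shmt2, the mitochondrial serine hydroxymethyltransferase, fell by 0.68 ± 0.09 (SE, limma adjusted p = 0.00263 and 0.00437).

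Trib3, Pck2 and Nupr1 rose, and their promoter windows hold CARE letters too. The stretches are shown here on GRCr8, with the matching letters in capitals.
Trib3, chr3:161275537-161275564, minus strand: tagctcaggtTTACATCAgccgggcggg
Pck2, chr15:32997604-32997631, plus strand: gccttcaaagTTACATCAgtatccttgc
Nupr1, chr1:190645939-190645966, minus strand: aaaggccagaTTGCATCAgacagggctt
Pycr1 (proline synthesis), Slc7a1 (a carrier of basic amino acids) and Chac1 (glutathione breakdown) also have the letters in their windows and were not called, at -0.36, 0.14 and -0.07. Psat1 and Shmt2, which fell, and Ddit3, which rose, have windows without the letters. Atf3, which also rose, had no window to search. Genes with matches were thus called in both directions, and so were genes without them.

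Transcripts of proteins that work beside the synthetases were called for 1 of 3 complex scaffolds and 2 of 14 charging helpers. For elongation factors it was 0 of 11, where 11.2% of all genes were called. Of the scaffold genes of the multisynthetase complex, Aimp2 rose by 0.31 ± 0.08 (SE, limma adjusted p = 0.0409). Its values were 9.57, 9.68, 9.70 and 9.92 in controls and 9.84, 10.07, 10.00 and 10.23 in deficient animals. Its groups overlapped, and it was called in 4 of the 12 fits without 1 animal or array. Aimp1 and Eef1e1, the other scaffolds, were at 0.12 and 0.08 and were not called. Of 14 charging helpers, Xpot, which exports transfer RNA from the nucleus, rose by 0.45 ± 0.12 and Sepsecs, which makes selenocysteine on its transfer RNA, fell by 0.62 ± 0.12 (SE, limma adjusted p = 0.0429 and 0.0161). Xpot was lower in the deficient sample on array 1, at -0.20, and higher on the others, at 0.47 to 0.89. It was called in 2 of those 12 fits. Sepsecs had values of 12.22, 12.29, 12.21 and 12.16 in controls and 11.38, 12.06, 11.50 and 11.46 in deficient animals, with no overlap, and was called in 6 of the 12 fits. Of 11 elongation factors limma called 0, with 1 higher and 0 lower at p under 0.05 before adjustment. Eef2, which moves the ribosome along, was at -0.30 ± 0.22 and the mitochondrial factor Tufm at -0.02 ± 0.08 (SE).

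**Figure D5:**
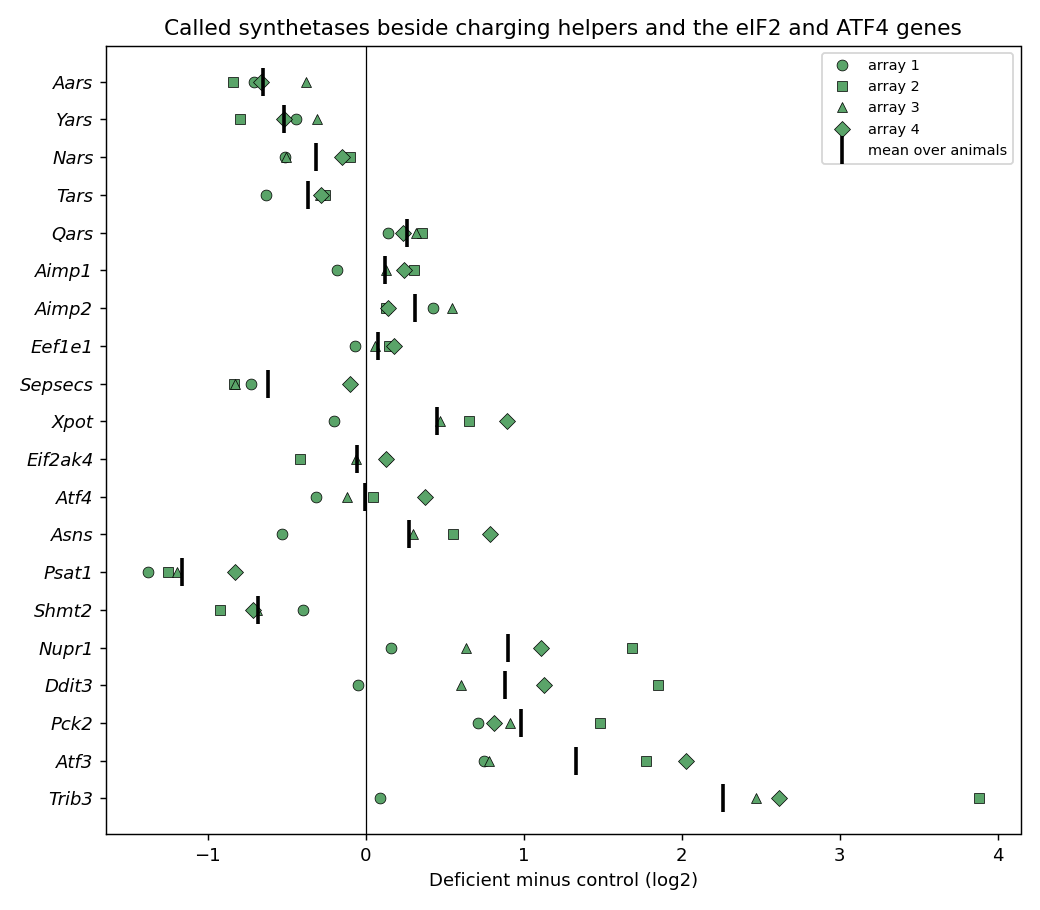
For the 4 called synthetases, Qars and genes of charging, of the eIF2 and ATF4 axis and of amino acid supply, symbols give the ratio on each of 4 arrays (deficient minus control, log2) and bars the mean. Aars, Yars, Nars, Tars, Psat1 and Shmt2 lie left of 0 on every array, while Trib3 and Atf3 lie right of 0, Trib3 with 0.09 on array 1.

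Across the 8 samples the median signal of a spot ran from 152.5 to 299, the median background from 33 to 58, and the share of spots well above background from 59.1% to 65.5%. Of the 6 hepatocyte markers 4 fell in deficient livers, and their summed log2 level lay between 20.24 and 20.52 in controls and between 19.56 and 20.08 in deficient animals. Of 7 neutrophil markers 4 fell, with summed log2 levels of 11.09 to 11.78 in controls and 10.48 to 10.99 in deficient animals, while Elane and Ngp were not well above background in any sample. The summed log2 level of skeletal muscle markers ran from 10.25 to 13.40 in deficient samples, against 10.08 to 10.697 in controls, and 3 of the 10 passed the filter. Of 9 pancreas acinar markers 6 were not well above background in any sample, and 0 were called, with summed log2 levels of 10.04 to 10.13 in controls and 10.01 to 10.42 in deficient animals. Of the Kupffer, erythroid, cholangiocyte and endothelial markers 0 were called, and of the stellate markers 1 was lower. The part of these markers in the synthetase differences was not tested, and in whole liver fewer cells of a type cannot be told apart from less RNA per cell.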

How the data were processed

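Each deposited file holds the spot intensities of 1 Agilent 2-colour rat array, which Agilent Feature Extraction (version 10.7.1.1) made, per the file headers, with flags for background and outliers; the authors' deposited table of normalized intensities, of unstated scaling, was an alternative only. In limma 3.58.1 (R 4.3.3), 74 spot values with local background over 5 times the channel median were left out, and mean signals were corrected with normexp (offset 50), loess and Aquantile. Values of spots flagged as outliers were then left out as well. A probe was kept if well above background in at least 4 of 8 samples and with a value in all 8. The brightest kept probe stood for a gene, so that other probes can differ. Diet was fitted with dye as a term and array as a random block (correlation 0.42), with Benjamini-Hochberg adjustment over all 14873 genes at 0.05. Values are log2 intensities and cannot be compared between probes. All members are accounted for. Values per animal are given for called members and the 4 mitochondrial ones of smallest p. Context genes are those called, up to 4 a list, and a few named ones. Qars, Mars and Aars2 were added after their values were seen. The members and lists were chosen with earlier results of these data known. Self-tests used simulated data, and alternatives are in the closing section. A few items are not reported here.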

Additional observations from a re-analysis of the deposited data

Results flagged for a closer look

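Of 60 tests of a lowest or highest animal in the groups of 4 (30 genes in both groups), 3 stood far from the rest, where chance gives about 1 in 20. Farsb was lowest in control replicate 1 at 10.31, with the nearest control at 11.12. Iars was lowest in control replicate 3 at 9.62, with the nearest at 10.68. Nars2 was lowest in control replicate 1 at 7.86, with the nearest at 8.27. All 3 values are normalized log2 intensities, and none of these genes was called. A diet by sex term was fitted in limma for the 30 genes: 0 passed (smallest adjusted p = 0.497) and 3 had an unadjusted p under 0.05.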

How the results depend on the processing

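The 4 summary results were recomputed under 27 alternatives, none of which reversed a called gene. The count of synthetases called lower, 4 in the report, was 2 with all spots kept, 2 with sex added, and 1 under median scaling without loess, with within-array ratios and a dye term, without the array block and without the dye term. It was 6 with sample weights (also Dars and Lars). It ran from 1 to 6 when 1 animal or array was left out. The count called higher, 0 in the report, was 1 (Mars2) with no filter on dim probes and 2 (Qars and Sars) with sample weights, and ran from 0 to 1 in the leave-outs. The cytosolic median was -0.11 with sample weights and ran from -0.27 to -0.14 in the leave-outs. The mitochondrial median ran from -0.06 to 0.02 over all alternatives. Over all genes, 1660 were called in the report, 4062 with sample weights, 467 with within-array ratios, 400 without the array block and from 210 to 3548 in the leave-outs. With the authors' deposited values Aars, Tars and Yars were called. The replicate numbers only name animals, so pairs were taken from the arrays, in the block and in the within-array ratios. With 4 arrays, a gene that was not called may still differ by an amount within its 95% interval.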
